A study of Mus musculus with 6 samples.

Results

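Endothelin, adrenomedullin and enkephalin are short peptides cut from longer precursors, and each acts on cell surface receptors of the heart and its vessels. The genes described here are *Edn1* and *Edn3*, 2 endothelin precursors, *Ece1*, the endothelin converting enzyme, and *Ednra* and *Ednrb*, the endothelin receptors. With them are *Adm*, the adrenomedullin precursor, *Calcrl*, *Ramp1* and *Ramp2*, for receptors of adrenomedullin and calcitonin gene-related peptide, and *Penk*, the enkephalin precursor. These 10 genes were chosen by function, in a list drawn up with the OE against CTRL differences of these arrays already known. Those differences therefore describe the genes and are no independent test of them. Of the 10 genes, 9 had at least 1 probe set that names the gene alone, out of 18193 genes measured in this way. *Ednra* was not analysed here. The 9 genes had 21 probe sets, of which *Edn3* had 4, *Ece1*, *Ednrb*, *Calcrl* and *Ramp1* had 3 each, *Adm* had 2, and *Edn1*, *Penk* and *Ramp2* had 1 each.

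Whole ventricles were profiled on 1 array per mouse. The 3 OE mice carried *CAG-S-COUP-TFII*, a COUP-TFII overexpression allele, on top of *Myh6-MCM*, and the 3 CTRL mice carried *Myh6-MCM* alone. Both groups had the 129SvEv/C57Bl6/J mixed background, both had Cre recombinase in cardiomyocytes under the *Myh6* promoter, active only with tamoxifen, and both were given 40 mg per kg of tamoxifen daily for 3 days from 2 months of age. Ventricles were taken 16 days after the first dose, at 2.5 months by the labels, while the methods state 2 months. COUP-TFII was therefore switched on in cardiomyocytes, while the RNA came from all cells of the ventricle, and in such tissue fewer cells of a type and less RNA per cell cannot be told apart.

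Endothelin-1 is a strong constrictor of vessels that endothelial cells release. Its precursor is cut by endothelin converting enzyme, and the peptide signals through receptor A, coupled to Gq in smooth muscle and cardiomyocytes, and through receptor B, which on endothelium releases nitric oxide and clears the peptide. Adrenomedullin is a dilator of vessels and is known to be induced by low oxygen. Its receptor is the calcitonin receptor-like protein encoded by *Calcrl*, which answers to adrenomedullin when paired with RAMP2 and to calcitonin gene-related peptide when paired with RAMP1. Enkephalins are opioid peptides that act mainly on the δ-opioid receptor, and in the rat the ventricle is known to hold abundant *Penk* mRNA.

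The values are log2 values that the authors set relative to the median of all 6 arrays for each probe set. They carry no expression level, so neither levels of different genes nor the absence of a transcript can be read from them. For any single probe set the 2 middle arrays lie at equal distances above and below 0, because the median of 6 values was set to 0. A gene is referred to as called where its adjusted p was under 0.05 in the limma fit across all 18193 genes. The root mean square distance between arrays over all genes was 0.194 to 0.215 within OE, 0.208 to 0.233 within CTRL and 0.375 to 0.427 for pairs of an OE and a CTRL array. *Nr2f2*, which encodes COUP-TFII, had 6 probe sets, of which 1 was higher in OE by 3.49 on the log2 scale and the other 5 differed by −0.34 to −0.13.

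Of the 9 measured genes, 7 were called, 3 of them higher in OE ventricles (*Edn1*, *Adm* and *Ramp1*) and 4 lower (*Penk*, *Ece1*, *Calcrl* and *Edn3*). Over all genes 26.7% were called, 14.9% higher and 11.8% lower. With each array centred on 43 ribosomal protein genes (ribosomal centring), 1309 genes were higher and 9221 lower, against 2709 and 2152 on the scale used here. On the scale used here those 43 genes were themselves higher in OE, with a median log2 difference of 0.21. The centring takes their rise out of every gene, so the reference is not neutral between the groups. It moved the median log2 difference of all genes from −0.03 to −0.25, and every gene by the same amount. OE and CTRL arrays did not overlap in the same 7 of the 9 genes, and in 45.6% of all genes. The median absolute log2 difference was 0.39 over the 9 genes and 0.17 over all genes. Since the genes were listed with this contrast known, nothing is read from these counts.

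**Figure D1:**
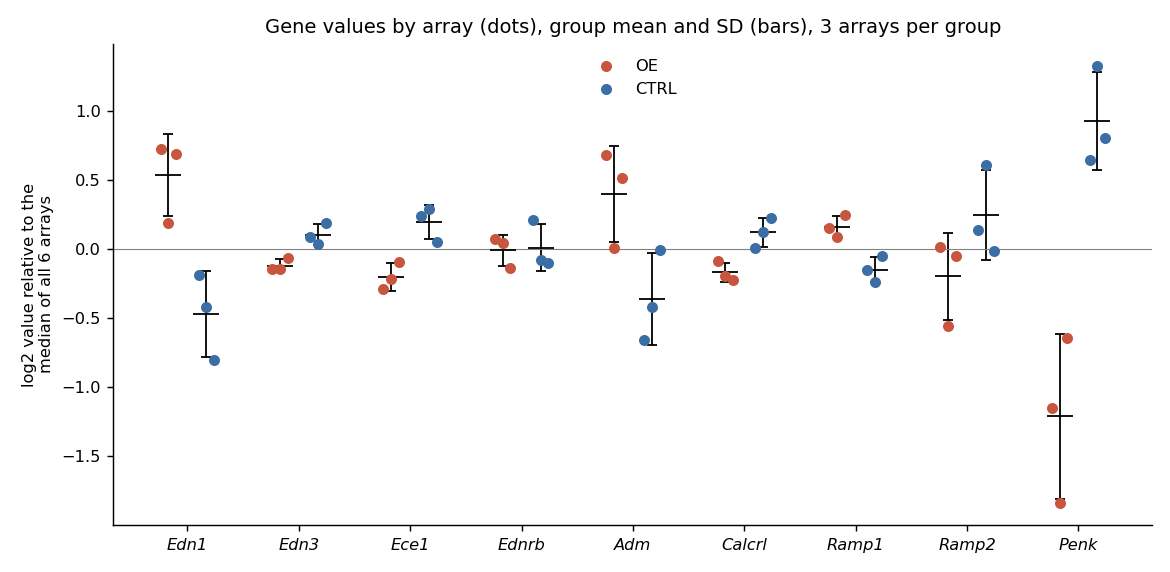
Log2 value of each measured gene, relative to the median of all 6 arrays, in the 3 OE and 3 CTRL arrays (dots), with bars for group mean and SD. *Penk* has the widest gap between the groups, with means of −1.21 in OE and 0.92 in CTRL, and in *Ednrb* and *Ramp2* the dots of the groups overlap.

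*Penk*, the enkephalin precursor (chr4:4133536-4138815, GRCm38.p6), showed the largest difference of the 9 genes. Its values were −1.15, −1.84 and −0.65 in the OE arrays, against 0.65, 1.32 and 0.80 in the CTRL arrays. All OE arrays lay below all CTRL arrays, and the nearest arrays of the groups were 1.29 apart on the log2 scale. *Penk* was 4.39-fold lower in OE (log2 −2.13, SE 0.29, 95% interval of the fold 2.74 to 7.04), rank 10 of 18193 genes from the largest fall. The OE arrays spread more widely (SD 0.60) than the CTRL arrays (SD 0.35), beside median SDs over all genes of 0.0943 in OE and 0.0971 in CTRL. *Penk* has 1 probe set, so no other probe set of the gene could be set against it. It was called lower in each of 13 alternative analyses, with log2 differences of −2.42 to −1.82. The alternatives that choose among probe sets could not move the difference of a gene with 1 probe set.

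*Edn1*, the precursor of endothelin-1 (chr13:42301476-42307990), was the largest rise among the 9 genes. It lay at 0.72, 0.19 and 0.69 in the OE arrays, against −0.19, −0.42 and −0.80 in the CTRL arrays. The groups did not overlap, and the lowest OE array was 0.38 above the highest CTRL array. The rise was 2.0-fold (log2 1.00, SE 0.19, 95% interval of the fold 1.48 to 2.71), rank 301 of 18193 genes from the largest rise. Leaving out 1 array at a time gave log2 differences of 0.84 to 1.17, and *Edn1* was called each time. *Edn1* was not called in one-way analysis of variance (adjusted p = 0.0733), which was used in the methods.

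*Adm*, the adrenomedullin precursor (chr7:110627657-110629820), was 1.69-fold higher in OE (log2 0.76, SE 0.21, 95% interval of the fold 1.21 to 2.36). Averaged over its 2 probe sets, it lay at 0.68, 0.01 and 0.51 in the OE arrays, against −0.66, −0.42 and −0.01 in the CTRL arrays. OE 2 and CTRL 3 were only 0.012 apart, so the groups barely parted. The call was lost without OE 1, OE 3, CTRL 1 or CTRL 2, where the log2 difference was 0.61 to 0.73, without the probe set 1447839_x_at (log2 0.60), and in one-way analysis of variance. The probe set 1447839_x_at was called higher by itself (log2 0.92) and 1416077_at was not (log2 0.60), where OE 2 at −0.06 lay below CTRL 3 at 0.06. The suffix _x_at marks a probe set whose probes may also bind other transcripts.

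The stretches of 250 bases before the annotated starts of the ligand genes that rose are shown because the transcripts of both were higher in OE. They are from RefSeq (GRCm38.p6), on the plus strand, at chr13:42301226-42301475 for *Edn1* and chr7:110627407-110627656 for *Adm*, and capitals mark matches, on either strand, to any of the motifs described after them.
Edn1: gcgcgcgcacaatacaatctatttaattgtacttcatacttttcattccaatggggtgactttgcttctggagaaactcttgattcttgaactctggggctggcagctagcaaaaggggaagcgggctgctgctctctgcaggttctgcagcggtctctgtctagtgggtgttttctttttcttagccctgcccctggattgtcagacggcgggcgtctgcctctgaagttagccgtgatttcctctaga
Adm: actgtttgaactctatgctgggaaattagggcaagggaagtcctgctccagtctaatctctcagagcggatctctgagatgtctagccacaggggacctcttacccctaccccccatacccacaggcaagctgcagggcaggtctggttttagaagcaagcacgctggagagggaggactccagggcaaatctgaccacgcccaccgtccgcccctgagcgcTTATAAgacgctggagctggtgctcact

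AGGTCA is a half-site of nuclear receptors such as COUP-TFII, and TATAA is the core of the TATA box. ACGTG is a form of the core bound by hypoxia-inducible factors, in which the first base can be A or G. The form GCGTG was not searched for, so it is neither in capitals nor in the counts below. The stretch before *Adm* holds CACGC, which reads GCGTG on the other strand. The capitals before *Adm* are 2 overlapping matches to TATAA, 1 on each strand, and the first of them begins 28 bases before the start. No match to any of the 3 motifs was found before *Edn1*. The reference held 11 such stretches for 8 of the 10 genes, and AGGTCA was in 0 of them, against 14% of 32851 stretches of all genes. ACGTG was found in 1 of the 11, before *Ece1* (16.6% of all), and TATAA in 1, before *Adm* (22.8% of all). These letters describe the sequence and were not tested for binding.

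*Edn3*, the precursor of endothelin-3, a ligand known for its action on receptor B in neural crest cells, differed little. Its values were −0.15, −0.14 and −0.07 in the OE arrays, against 0.09, 0.04 and 0.19 in the CTRL arrays. The groups did not overlap, and *Edn3* was called lower by 1.17-fold (log2 −0.22, SE 0.07, 95% interval of the fold 1.04 to 1.31). This call lay just inside the threshold and was lost in 11 of 13 alternative analyses, among them leaving out any single array. None of its 4 probe sets was called by itself (log2 −0.35 to −0.06). Without 1441923_s_at and 1441924_x_at, both of a kind that may bind other transcripts, the log2 difference was −0.12.

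*Ece1*, the converting enzyme of the endothelins, was 1.31-fold lower in OE (log2 −0.39, SE 0.09, 95% interval of the fold 1.14 to 1.52). It lay at −0.29, −0.22 and −0.10 in the OE arrays, against 0.23, 0.29 and 0.05 in the CTRL arrays. The lowest CTRL array, CTRL 3, was 0.15 above the highest OE array, OE 3. The 3 probe sets ran alike, with log2 differences of −0.43, −0.42 and −0.34, and the first 2 of these were called. The call on the gene was lost without OE 1, CTRL 1 or CTRL 2 (log2 −0.37 to −0.35) and in one-way analysis of variance.

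*Ednrb*, which encodes endothelin receptor B, showed no difference past the spread of the arrays. It lay at 0.07, 0.04 and −0.14 in the OE arrays, against 0.21, −0.08 and −0.10 in the CTRL arrays, so the groups overlapped throughout. The log2 difference was −0.02 (SE 0.10), and its 95% interval allowed a level between 1.2-fold lower and 1.17-fold higher in OE. Its 3 probe sets had log2 differences of −0.15, −0.04 and 0.13, and none was called.

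*Calcrl*, the receptor gene shared by adrenomedullin and calcitonin gene-related peptide, was 1.22-fold lower in OE (log2 −0.29, SE 0.08, 95% interval of the fold 1.07 to 1.39). Its values were −0.09, −0.20 and −0.22 in the OE arrays, against 0.01, 0.12 and 0.22 in the CTRL arrays. The groups were apart by 0.10. Of its 3 probe sets, 1418489_a_at was called lower (log2 −0.44), while 1425814_a_at (log2 −0.35) and 1459536_at (log2 −0.07) were not. The call on the gene was lost on leaving out any array but CTRL 1 (log2 −0.33 to −0.24) and in one-way analysis of variance.

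*Ramp1* and *Ramp2* encode the small membrane proteins that set which peptide the receptor binds. The *Ramp1* probe set 1417481_at lay at 0.62, 0.37 and 0.63 in the OE arrays, against −0.63, −0.41 and −0.37 in the CTRL arrays. It was 2.01-fold higher in OE (log2 1.01, SE 0.11). The other 2 probe sets of the gene had log2 differences of −0.08 (SE 0.14) and 0.00 (SE 0.13), and their groups overlapped. Averaged over the 3, *Ramp1* was called higher by 1.24-fold (log2 0.31, SE 0.08, 95% interval of the fold 1.09 to 1.4). This call was lost with ribosomal centring (log2 0.09), with one-way analysis of variance, and without OE 1, OE 3, CTRL 1 or CTRL 2 (log2 0.27 to 0.32). It was kept with the probe set of largest variance, 1417481_at (log2 1.01). Of the 3, only 1417481_at is annotated to a RefSeq mRNA. Which of the 3 detect the main transcript of *Ramp1* in the ventricle was not tested.

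*Ramp2*, with 1 probe set, lay at 0.02, −0.56 and −0.05 in the OE arrays, against 0.14, 0.61 and −0.02 in the CTRL arrays. OE 1 lay above CTRL 3, and OE 2 and CTRL 2 were far from the other arrays of their groups. The log2 difference was −0.44 (SE 0.20) and was not called, with a 95% interval that allowed a level between 1.86-fold lower and 1.01-fold higher in OE. Without OE 2 the log2 difference was −0.26, and without CTRL 2 it was −0.26 too, while ribosomal centring gave −0.66 and called *Ramp2* lower.

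**Figure D2:**
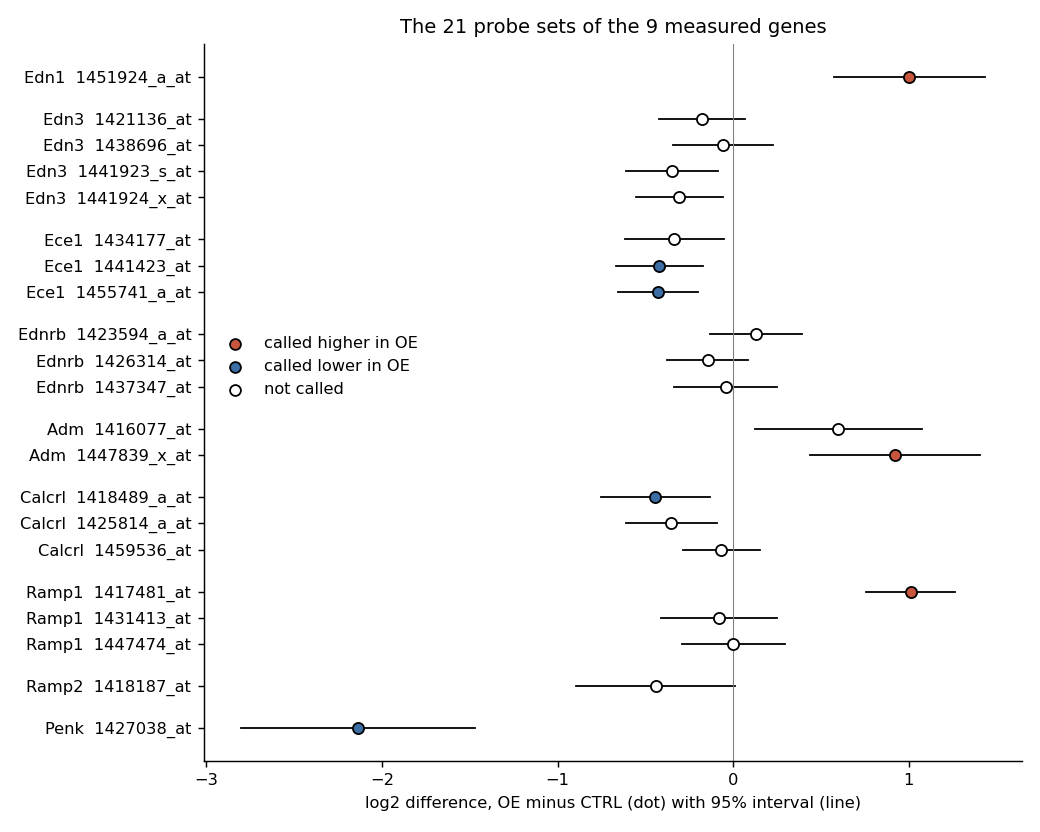
Log2 difference, OE minus CTRL, of each of the 21 probe sets of the 9 genes (dots) with its 95% interval (lines), 3 arrays per group. Red dots were called higher, blue dots lower and white dots not called in the fit across 34945 probe sets, and only 1 of the 3 *Ramp1* probe sets is away from 0, at 1.01.

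Tested one by one in a fit across all 34945 probe sets, 3 of the 21 probe sets were called higher and 4 lower, where 24.4% of all probe sets were called. They were the single probe sets of *Edn1* and *Penk*, 1 each of *Adm*, *Ramp1* and *Calcrl* and 2 of *Ece1*. In 10 of the 21 the groups did not overlap. The probe sets of *Edn3*, *Ece1* and *Calcrl* all had differences below 0 and both of *Adm* differences above 0, while those of *Ramp1* and *Ednrb* lay on both sides.

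Of 5 further genes for cutting or breaking down the endothelin peptides, 1 was called higher and 3 lower, where 14.9% and 11.8% of all genes were, and so few genes give no direction for the list. *Mme*, which encodes neprilysin, a protease that degrades endothelin, adrenomedullin and enkephalins, was 2.25-fold lower (log2 −1.17, SE 0.13, adjusted p = 0.000937 from limma). *Cma1*, a mast cell chymase (log2 −0.64, adjusted p = 0.0289), and *Furin*, the protease of the first cut of the endothelin precursors (log2 −0.39, adjusted p = 0.00869), were lower too. *Ece2*, a relative of *Ece1*, was higher (log2 0.28, adjusted p = 0.0357), a call lost with ribosomal centring (log2 0.06). *Edn2*, the precursor of endothelin-2, differed by −0.02 (adjusted p = 0.881) and was not called, although that centring called it lower (log2 −0.24, adjusted p = 0.0312). *Cma1* and *Ece2* were not called in one-way analysis of variance.

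Below the endothelin receptors, 2 of 20 measured genes of Gq and its partners were called higher and 6 lower, where 14.9% and 11.8% of all genes were. Their median log2 difference was −0.16, beside −0.03 for all genes. *Rgs5*, a brake on G protein signalling of pericytes (log2 −0.71, SE 0.08, adjusted p = 0.00104), and *Rgs4*, a further brake (log2 −0.55, adjusted p = 0.0266), were lower. The kinase gene *Prkcd* (log2 0.62, adjusted p = 0.00157) and the G protein gene *Gna13* (log2 0.49, adjusted p = 0.00221) were higher. *Gnaq*, the α-subunit itself, differed by 0.01 (adjusted p = 0.931) and *Plcb1*, the phospholipase it drives, by −0.12 (adjusted p = 0.218), and neither was called. With ribosomal centring 2 of the 20 were higher and 14 lower, *Gnaq* and *Plcb1* among those lower. Of the 20, 5 were called and *Rgs4* was not in one-way analysis of variance.

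Of the other genes of the adrenomedullin system, 0 of 3 ligand genes and 1 of 5 genes of receptors and partners were called, counts too small to set apart from the 26.7% of all genes. Of the 3 ligand genes none was called by limma or by one-way analysis of variance and 0 had an unadjusted p under 0.05, and *Iapp* was called lower with ribosomal centring (log2 −0.22, adjusted p = 0.046). As reported, their log2 differences ran from −0.09 for *Adm2* to 0.22 for *Calcb*, which encodes a calcitonin gene-related peptide. Of the 5 genes of receptors and partners, *Crcp*, a coupling protein of the receptor, was higher (log2 0.42, SE 0.07, adjusted p = 0.00625), but not with ribosomal centring (log2 0.20, adjusted p = 0.0701). *Gpr182*, a receptor gene once proposed to bind adrenomedullin, was not called (log2 −0.17, adjusted p = 0.237), and ribosomal centring called it lower (log2 −0.38, adjusted p = 0.0146). *Ramp3*, the other partner for adrenomedullin, differed by −0.06 (adjusted p = 0.768) and *Ackr3*, a scavenger receptor that binds adrenomedullin, by −0.03 (adjusted p = 0.884). *Pam*, the enzyme that amidates adrenomedullin and other peptides, was 1.69-fold higher (log2 0.76, SE 0.10, adjusted p = 0.00207).

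Of the other opioid genes, the precursor genes *Pdyn* (log2 −0.07), *Pomc* (log2 −0.29, adjusted p = 0.0527) and *Pnoc* (log2 0.02) were not called, although *Pomc* and *Pdyn* were called lower with ribosomal centring. The 4 classical opioid receptor genes, among them *Oprd1* for the δ-receptor (log2 −0.21, adjusted p = 0.253) and *Oprm1* for the μ-receptor (log2 −0.16, adjusted p = 0.107), were not called either, and 1 of them had an unadjusted p under 0.05. That centring called all 4 lower, and the probe set of largest variance called *Oprm1* lower (log2 −0.40, adjusted p = 0.0163). *Ogfrl1* (log2 0.60, adjusted p = 0.00126) and *Ogfod1* (log2 0.31, adjusted p = 0.0169), which were listed for their names and are not classical opioid receptors, were higher, and the call on *Ogfod1* was lost with that centring (log2 0.10). Of 20 measured genes that cut, trim or package peptide hormones, 3 were called higher and 2 lower, where 14.9% and 11.8% of all genes were. Their median log2 difference was −0.01. With ribosomal centring 2 were higher and 7 lower, with a median of −0.22. Beside *Pam*, *Pcsk5*, a proprotein convertase (log2 0.49, adjusted p = 0.00878), was higher, a call lost in one-way analysis of variance (adjusted p = 0.0548). *Cpe*, the carboxypeptidase that trims enkephalins (log2 −0.01, adjusted p = 0.936), and *Pcsk1*, a convertase of neuroendocrine cells (log2 −0.09, adjusted p = 0.718), were not called.

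**Figure D3:**
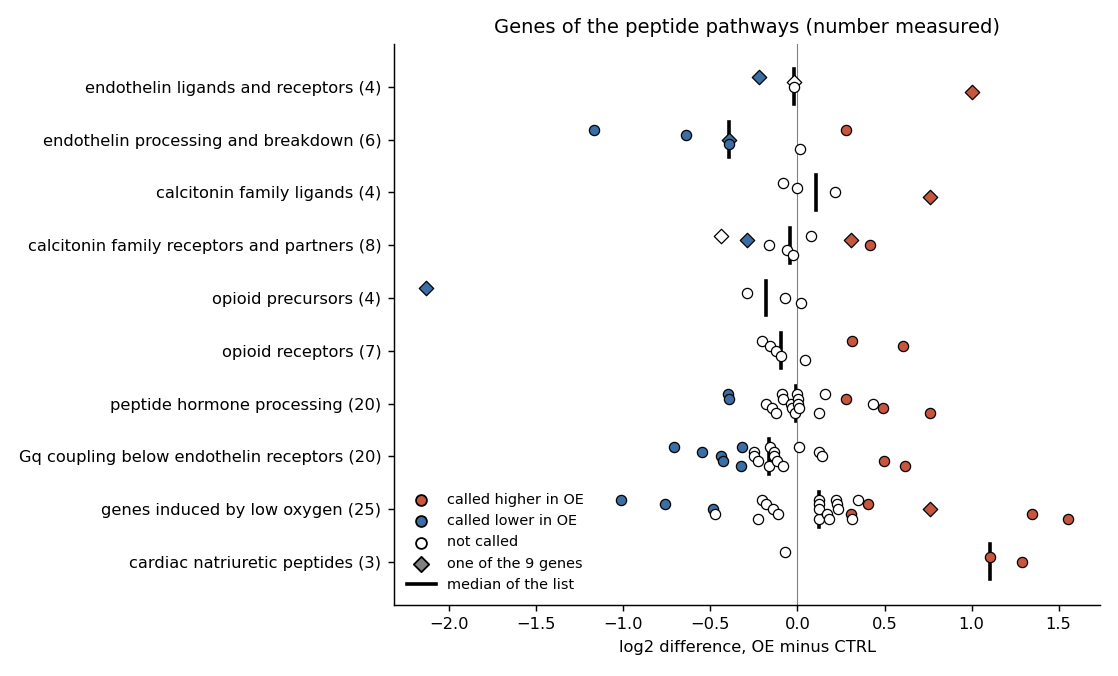
Log2 difference, OE minus CTRL, of each measured gene in 10 lists of peptide ligands, receptors, processing enzymes and related genes, 3 arrays per group. Diamonds are the 9 genes and circles the others. Red was called higher, blue lower and white was left uncalled. A black bar gives each list median, which is −0.16 for Gq coupling and 0.13 for the low oxygen list.

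*Adm* is one of many genes known to be induced by low oxygen. The list drawn up for them also holds *Hif1a*, *Epas1*, *Hif3a* and *Arnt*, genes of the hypoxia-inducible factors themselves. Of 24 measured genes of this list other than *Adm*, 4 were called higher and 3 lower, where 14.9% and 11.8% of all genes were. Their median log2 difference was 0.13. Over the list of 25 with *Adm*, 5 were higher and 3 lower, against 3 higher and 8 lower with ribosomal centring, where the median was −0.09. *Slc2a1*, a glucose transporter (log2 1.56, SE 0.19, adjusted p = 0.00126), and *Hmox1*, a haem oxygenase (log2 1.35, SE 0.18, adjusted p = 0.00213), were higher. *Vegfa*, the endothelial growth factor (log2 −0.76, SE 0.09, adjusted p = 0.00144), and *Epas1*, which encodes HIF-2α (log2 −1.02, SE 0.10, adjusted p = 0.000635), were lower. *Hif1a* (log2 0.35, adjusted p = 0.164) and *Ddit4* (log2 0.18, adjusted p = 0.766) were not called. With the probe set of largest variance *Hif1a* was called higher (log2 0.75, adjusted p = 0.0068).

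Endothelin-1 is known to raise natriuretic peptide genes in cultured rat cardiomyocytes. *Nppa* was called higher (log2 1.29, SE 0.12). *Nppb* was called higher by limma (log2 1.11, adjusted p = 0.0308) and not in one-way analysis of variance (adjusted p = 0.15). *Nppc* was not called (log2 −0.07, adjusted p = 0.608), although ribosomal centring called it lower (log2 −0.29). Whether the rises of *Nppa* and *Nppb* go with that of *Edn1* was not tested, and *Nppa* is also one of the atrial markers counted below.

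Markers of the cells that make or answer to these peptides moved in the same arrays. Over all genes 14.9% were called higher and 11.8% lower, to be set beside the marker counts that follow. Of 19 markers of blood endothelium, a main source of endothelin-1 and a main site of *Calcrl*, *Ramp2* and *Ece1*, 11 were called lower and 1 higher, with a median log2 difference of −0.43. Their mean relative value was −0.18 to −0.01 in the OE arrays and 0.09 to 0.24 in the CTRL arrays. *Robo4* (log2 −0.74), *Flt1* (log2 −0.62) and *Erg* (log2 −0.58) were lower, and *Plvap*, a protein of fenestrated endothelium, was higher (log2 0.90). One-way analysis of variance called 3 of the 19, and *Flt1* was not among them. *Ece1*, *Calcrl* and *Ramp2* had differences of the same sign as this list and *Edn1* of the opposite sign. The share of these differences that goes with endothelial content was not tested.

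Of 20 cardiomyocyte markers 11 were lower and 3 higher, with a mean relative value of −0.19 to −0.16 in the OE arrays and 0.11 to 0.18 in the CTRL arrays. Of 18 fibroblast markers 9 were higher and 3 lower (0.23 to 0.43 in OE, −0.55 to −0.23 in CTRL), and of 21 macrophage markers 9 were higher and 0 lower by limma, or 6 and 2 with ribosomal centring and 3 called in one-way analysis of variance (0.10 to 0.34 in OE, −0.39 to −0.14 in CTRL). Of 14 markers of smooth muscle and pericytes, which respond to endothelin-1, 6 were higher and 6 lower (0.09 to 0.15 in OE, −0.21 to 0.01 in CTRL). The median log2 difference of these 14 was −0.27, opposite in sign to the difference of their means. The means include *Cnn1*, which had the largest rise of the list (log2 4.94), so they do not give the direction of most of its genes. Of 5 atrial markers 4 were higher (0.43 to 0.90 in OE, −0.53 to −0.47 in CTRL). None of 10 lymphocyte markers and none of 3 red cell markers was called by limma or by one-way analysis of variance, while 2 lymphocyte markers and 1 red cell marker had an unadjusted p under 0.05, and ribosomal centring called 4 and 2 of them lower. Of 9 markers of Schwann cells and neurons 3 were higher and 3 lower, and of 6 of lymphatic endothelium 1 was higher and 2 lower. The values hold no level, so whether a marker was at background could not be read, and the part of these cells in the peptide genes was not tested.

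**Figure D4:**
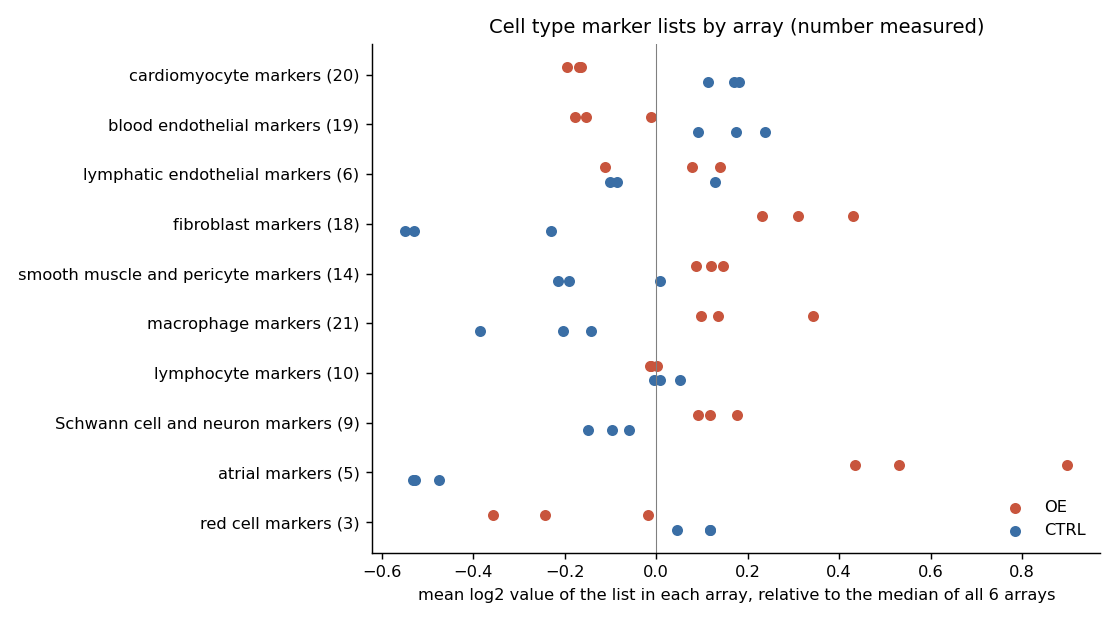
Mean log2 value of each cell type marker list in each of the 3 OE and 3 CTRL arrays (dots), relative to the median of all 6 arrays. The blood endothelial list lies at −0.18 to −0.01 in OE and 0.09 to 0.24 in CTRL, and the fibroblast list at 0.23 to 0.43 in OE and −0.55 to −0.23 in CTRL.

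Genes with profiles most like those of the peptide genes were sought by the root mean square distance over the 6 arrays. Nearest to *Edn1* were *Nnmt*, a methyltransferase of nicotinamide, *Fem1c*, *Nfe2l2*, which encodes the antioxidant factor NRF2, the chemokine scavenger gene *Ackr4* and *Ly86*, at distances of 0.112 to 0.142 where the profile of *Edn1* itself had a root mean square of 0.56. Nearest to *Adm* (0.471) were the gelatinase gene *Mmp2*, the glycogen phosphorylase gene *Pygl*, *Gng8*, *Zfp623* and *Nts*, the neurotensin precursor, at 0.0919 to 0.129. Nearest to *Penk* (1.15) were the matrix gene *Efemp1*, the ephrin gene *Efnb3*, *Plin5*, a protein of lipid droplets, *Retnla* and *Gdap10*, at 0.36 to 0.384. The closest was *Trmt1l* to *Edn3*, *Spata18* to *Calcrl*, *Cyp2j6* to *Ramp1* and *Tigd3* to *Ece1*, at distances of 0.0246 to 0.0312. These distances describe 6 arrays in which the groups differ, so genes that differ by the same amount between OE and CTRL come out close.

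**Figure D5:**
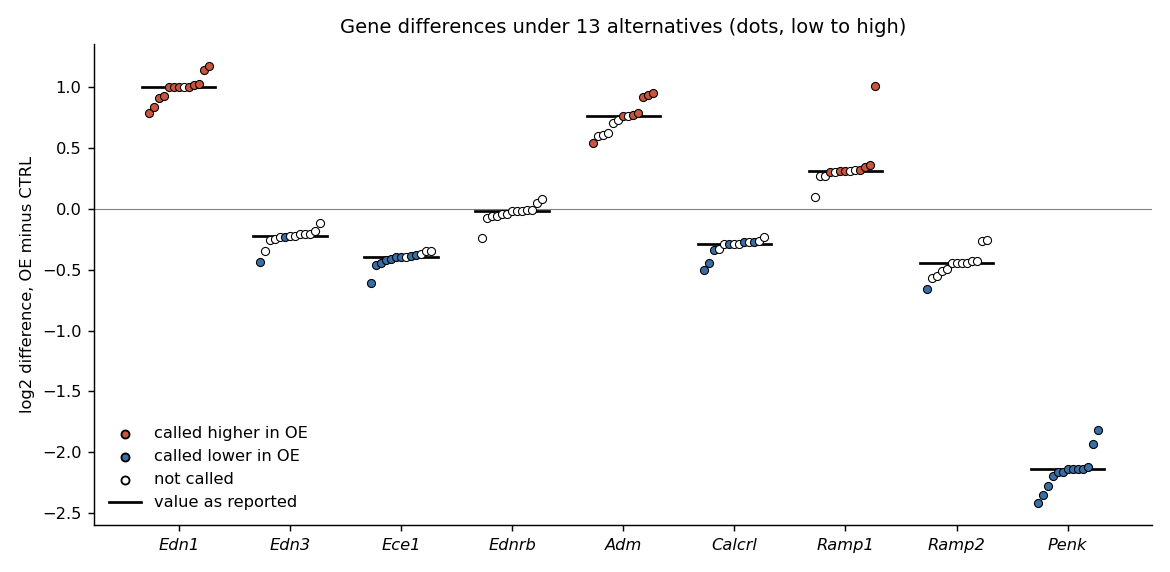
Log2 difference, OE minus CTRL, of each of the 9 genes under 13 alternative analyses (dots, low to high) beside the value as reported (black line). Filled dots were called and white dots not. *Penk* was called in all 13, *Edn1* in 12, *Ece1* in 9, *Adm* and *Ramp1* in 7, *Calcrl* in 6, *Edn3* in 2, *Ramp2* in 1 and *Ednrb* in none. Alternatives that choose among probe sets cannot move *Edn1*, *Penk* and *Ramp2*, which have 1 each.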

How the data were processed

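Expression was measured on 6 Affymetrix whole-genome mouse arrays, 3 OE and 3 CTRL. The authors processed them in GeneSpring GX by RMA, with quantile normalization and a baseline at the median of all samples, and the deposited values are read here as log2, the usual output of RMA. They ran from −4.29 to 3.54, with no probe set median further from 0 than 5e-07. The RMA version and the base of the logarithm are not given in the sources used here. The number of arrays limits the precision.

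Of 45101 probe sets, the 34945 that name 1 gene and are no array control were used, with array symbols updated through their gene IDs, and probe sets of a gene were averaged, which gave 18193 genes. OE and CTRL were compared across all genes, and across all probe sets, in R 4.3.3 with limma 3.58.1 (lmFit, eBayes), two-sided, with no covariate and Benjamini-Hochberg adjustment at 0.05. Intervals are 95% intervals with moderated standard errors. The script was tested on simulated data. Tables used Python 3.11.15 with pandas 2.3.3, and plots used matplotlib 3.10.9.

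The 10 genes and the lists were chosen with earlier results of these data known. Lists were written from textbook knowledge and are described by counts and medians. Of each pathway list, at most 4 called genes and a few that were not called are named with values. Alternatives were one-way analysis of variance (named in the methods), weighted arrays, genes without their _x_at and _s_at probe sets, the probe set of largest variance, centring on ribosomal protein genes or on array medians, a block for the replicate number, the omission of each array in turn, and fold limits. A filter on expression, which the methods describe, could not be applied to values without a level.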

Additional observations from a re-analysis of the deposited data

How the results depend on the processing

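Of the 117 values of the 9 genes under 13 alternatives each, 81 kept their side of the threshold, 35 lost a call and 1 gained one. Some of the 117 could not differ from the value as reported. Choosing the probe set of largest variance cannot move *Edn1*, *Penk* and *Ramp2*, with 1 probe set each. Dropping _x_at and _s_at probe sets moved only *Edn3* and *Adm*. The log2 differences under one-way analysis of variance and with the replicate number as a block equal the reported ones by construction. In those settings only the p-value could change, so the sign was fixed in advance. The 7 called genes kept their sign throughout, while *Ednrb*, which was not called, differed by 0.05 without OE 3 and by 0.08 without CTRL 1, against −0.02 with all arrays. *Penk* was the single gene of the 9 called by one-way analysis of variance, where 1 was called in place of 7 and 2562 genes in all in place of 4861. Without 1 array at a time 2 to 5 of the 9 genes were called (2 without OE 1 or CTRL 2, 3 without OE 3 or CTRL 1) and 3073 to 4102 of all genes. With fold limits of 1.5 and 2, the called genes among the 9 numbered 3 and 2, and among all genes 1406 and 424. Testing probe sets one by one called 8512 of them. Centring on ribosomal protein genes called 10530 genes, while 7 of the 9 were called, with *Ramp2* in place of *Ramp1*. Whether the replicate numbers pair the animals cannot be told from 3 pairs of arrays. Deviations of arrays with the same number correlated between −0.12 and 0.07. Among the CTRL arrays, CTRL 3 was the closest to every OE array, so nearness holds no information on pairing. With the replicate number as a block 4048 genes and 5 of the 9 were called, and *Edn3* and *Calcrl* were not.

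The deposited scale keeps no signal over background, so whether a gene with a small difference was near the detection limit could not be judged, and the cause of each lost call was not tested.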

Other observations

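*Ramp2* has 2 further probe sets that also name *Vps25*, a gene of endosomal sorting, and they were left out of the gene. Both were higher in OE, the opposite sign to the probe set that names *Ramp2* alone (log2 −0.44). The probe set 1421051_s_at lay at 0.16, 0.01 and 0.35 in the OE arrays, against −0.07, −0.01 and −0.19 in the CTRL arrays (log2 0.27), and 1428621_a_at at 0.20, 0.01 and 0.20 in the OE arrays, against −0.10, −0.01 and −0.28 in the CTRL arrays (log2 0.26). Which transcript they detect was not tested.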
